A study of Homo sapiens with 6 samples.

Results

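The baseline transcriptome of wild-type (WT) HCT116 cells is described here from the 3 WT libraries of a series of 6 RNA-seq libraries, chosen by their genotype label. HCT116 is a human colorectal carcinoma cell line, grown in McCoy's 5A medium with serum. The series compared WT cells with LSD1 KO clones made with CRISPR/Cas9, and the knockout contrast is not tested here. Polyadenylated RNA was sequenced. The sources used here do not state whether the WT cells received any CRISPR/Cas9 reagents. Per the study's methods, experiments had biological replicates unless specified otherwise, and the labels do not say that the 3 libraries came from separate cultures, so the spread between them may be technical in part.

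HCT116 cells arose from the colonic epithelium, in which stem cells at the crypt base give rise to absorptive colonocytes and to goblet, enteroendocrine, tuft and, in the small intestine, Paneth cells. The line is known for a stabilising CTNNB1 allele and a loss of DNA mismatch repair. Many genes with CG-rich promoters are known to carry DNA methylation and to be silent in colorectal cancer, and DNA methylation at CG-rich promoters is the subject of the study that made these libraries.

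Total counts were 25379279, 27662161 and 29186963 in WT replicates 1, 2 and 3. Levels within a gene are given as CPM, the counts scaled to a library total of 1000000. Levels of different genes are compared only on the length-scaled level, for which each gene's counts were divided by the length of its canonical transcript and scaled to a sum of 1000000 in each library (ppm). A gene was taken as expressed with a mean of at least 1 CPM, as silent with at most 3 counts in every WT library, and as low in between. At these depths 3 counts equal 0.103 to 0.118 CPM, and a gene at 0 counts in a single library may thus lie anywhere up to that level. Floors cover counting error only. KDM1A, which encodes LSD1, the demethylase targeted in the other group, had 6119, 5927 and 6451 counts in the WT libraries, or 241, 214 and 221 CPM, against 30.01, 26.2 and 28.2 CPM in the LSD1 KO libraries, so its levels went with the labels.

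WT replicate 2 stood apart from the other libraries in its dependence on transcript length. Among the 14809 genes with a mean of at least 1 CPM, 1176 differed over 2-fold from the mean of the other libraries in replicate 2, against 895 in replicate 1 and 242 in replicate 3. With TMM library sizes, a scaling that discounts genes that differ strongly, these numbers were 1121, 991 and 240, so replicates 1 and 2 were then closer. Of the 1176 genes without TMM, 966 were lower and 210 higher in replicate 2. Among protein-coding genes with a mean of at least 10 CPM, the median log2 ratio of replicate 2 to the mean of the others was 0.53 for transcripts under 1 kb and -0.64 for those of 8 kb and over, while replicate 1 went from -0.30 to 0.33 and replicate 3 from -0.28 to 0.21. Replicate 2 is part of the mean with which replicates 1 and 3 were compared, so their opposite slopes are not independent of it. The cause of the dependence on length was not tested. Across the 14809 genes, log2(CPM + 1) had Pearson's r of 0.958 between replicates 1 and 2, 0.981 between 1 and 3 and 0.977 between 2 and 3, as a description over genes that share their libraries. Leaving out replicate 2 moved 7 of the 751 genes of the lists described here across the line of 1 CPM, and they are CDHR5, LYZ, CDH4, HIC1, OVOL2, TIMP3 and HOXB2.

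**Figure D1:**
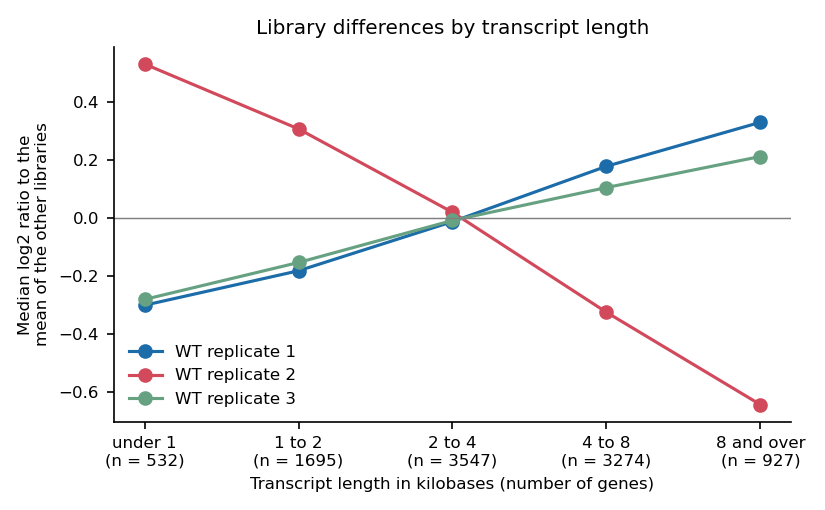
Median log2 ratio of each WT library to the mean of the other libraries (y axis) for protein-coding genes with a mean of at least 10 CPM, grouped by transcript length in kilobases (x axis, with the number of genes). Replicate 2 runs from 0.53 for the shortest transcripts to -0.64 for the longest. Replicates 1 and 3 run the opposite way, with replicate 2 part of the mean they are compared with.

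WT HCT116 cells expressed 14809 of the 60240 genes in the table (24.6%), and 36407 (60.4%) were silent, of which 29496 had 0 counts in every WT library. Of the 19828 protein-coding genes, 12635 (63.7%) were expressed, 2715 were low and 4478 (22.6%) were silent. Only 74 protein-coding genes reached a mean of 1000 CPM, 2011 lay between 100 and 1000 CPM, 7891 between 10 and 100 CPM and 2659 between 1 and 10 CPM. Long noncoding RNA genes were expressed far less often, 1522 of 16608 (9.16%), and 426 of 14981 pseudogenes (2.84%) were. None of 1150 microRNA genes was expressed in these poly(A) libraries. Protein-coding genes took 96.7% ± 0.0892 (SD, n = 3) of the counts and long noncoding RNAs 1.42% ± 0.118. The median coefficient of variation over the 3 libraries was 26.9% for genes with means from 1 to 10 CPM and between 15.7% and 18.4% for higher genes, so low genes were measured with less precision. In what follows, values after ± are SDs over the 3 libraries. Where genes of a list are said to lead or to be highest by CPM, the order is that of their counts, which long transcripts raise, and not of molecules.

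The transcriptome was led by the respiratory chain subunits that the mitochondrial genome encodes, by ribosomal proteins, and by glycolytic, cytoskeletal and translation genes. The 100 genes with the highest mean CPM took 21.8% ± 1.47 of the counts. On the length-scaled level, 309 genes made up 50% of the transcriptome, the leading 10 made up 13.03% and the leading 100 made up 36.9%. All 13 mitochondrially encoded protein genes were expressed, with a median length-scaled level of 6916 ppm against 6.13 ppm for all protein-coding genes. Together they took between 5.23% and 6.20% of the counts of a library.

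The protein-coding genes with the highest length-scaled level were MT-CO1 at 20801 ± 3014 ppm, MT-CO2 at 19494 ± 456 ppm and MT-CO3 at 18818 ± 4137 ppm, the subunits of cytochrome c oxidase that mitochondria make themselves. The ATP synthase subunit MT-ATP6 followed at 16766 ± 4702 ppm and the complex I subunit MT-ND4 at 13443 ± 3182 ppm. The intervals of the first 4 overlap, so their order is not resolved by 3 libraries. Next came MT-ATP8 (7800.5 ± 3742 ppm), the ribosomal protein gene RPS2 (7705 ± 1786 ppm), the glycolytic enzyme gene GAPDH (7508 ± 285 ppm), the elongation factor gene EEF1A1 (7470.1 ± 1082 ppm), the cytoplasmic actin gene ACTG1 (7084 ± 780.3 ppm), MT-ND4L (6916 ± 4404 ppm) and MT-ND2 (6260.5 ± 1410.3 ppm). Neighbours among these 7 did not differ beyond the spread of their libraries. RPLP0 of the ribosomal stalk (5942 ± 488 ppm), PTMA, which encodes the chromatin-associated prothymosin alpha (4994 ± 428 ppm), and RPS18 (4297 ± 1049 ppm) completed the 15. Relative to their means, MT-ND4L and MT-ATP8 varied most of the 15, and both were lowest in replicate 2, with 1032, 394 and 855 CPM for MT-ATP8 and 1535, 385 and 966 CPM for MT-ND4L. Each overlaps a neighbouring mitochondrial gene, so the division of reads is uncertain. The canonical transcripts of MT-ATP8 and MT-ND4L have 207 and 297 bases, while transcripts under 1 kb were in the median higher in replicate 2.

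Among protein-coding genes, MT-CO1 had the highest mean CPM, with 14227, 14658 and 17295 CPM. EEF1A1 followed with 10189.7, 15602 and 12401 CPM, and in replicate 2 it was above MT-CO1. Next came MT-ND4 at 9599, 7043 and 9848 CPM, MT-CO3 at 5041, 8689 and 7750.3 CPM and ACTG1 at 5438, 7477 and 6805 CPM. The 10 protein-coding genes with the highest mean CPM also held MT-CO2, MT-ATP6 and GAPDH, and both cytosolic HSP90 chaperone genes, HSP90AB1 at 5441, 4532 and 4149 CPM and HSP90AA1 at 4871, 3926 and 3546 CPM. Both HSP90 genes were highest in replicate 1, the reverse of EEF1A1.

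**Figure D2:**
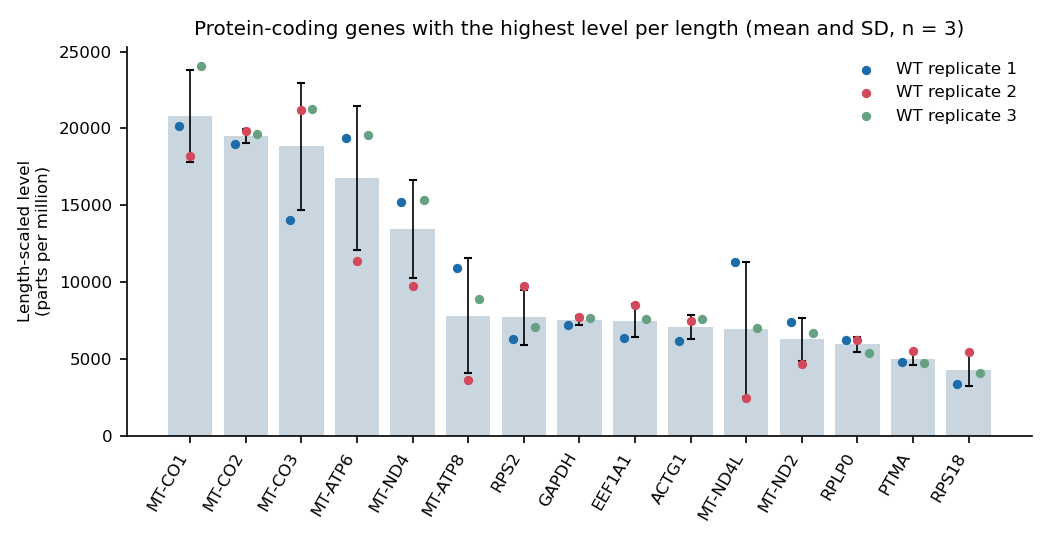
Length-scaled level in ppm (y axis) of the 15 protein-coding genes where it was highest (x axis). Bars are means, error bars SDs and points the 3 WT libraries, and the means of the first 5 genes, all mitochondrial, run from 20801 ppm to 13443 ppm, followed by MT-ATP8 at 7800.5 ppm.

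Cytosolic ribosomal proteins were high as a group. Of 87 genes, 84 were expressed, with a median length-scaled level of 1661 ppm, and together they took between 5.505% and 8.51% of the counts of a library. The highest share was in replicate 2, where short transcripts were high. RPS2 at 3551 ± 1103 CPM, RPLP0 at 3172 ± 417 CPM and RPL13 at 2318 ± 1004 CPM had the most counts, and reads of these genes can be shared with their many processed pseudogenes. All 78 mitochondrial ribosomal protein genes were expressed as well, at a median of 79.1 ppm, led by MRPL12 at 159.7 ± 59.7 CPM. Of 48 proteasome subunit genes, 45 were expressed at a median of 128 ppm, led by PSMD2 at 447 ± 40.7 CPM.

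Ribosomal protein mRNAs are known for a pyrimidine tract at the cap through which growth signals set their translation. As a plain description of it, the letters CTTT were searched on the gene's strand within 10 bases on either side of the annotated start. They were found for 37 of 66 ribosomal protein genes with a usable RefSeq promoter window (56.1%), against 7.93% of 13360 protein-coding genes with one. They were also found for 13 of the 45 genes at 1000 CPM and over (28.9%), a set that ribosomal protein genes partly fill. The 4 ribosomal protein genes with the highest length-scaled level among those with the match are shown from 20 bases before the start to 10 after it, from RefSeq on GRCh38.p14, with CTTT in capitals.
RPSA (chr3:39406700-39406729, plus strand): cgtcatttcctgccgcctgtCTTTtccgtg
RPS12 (chr6:132814549-132814578, plus strand): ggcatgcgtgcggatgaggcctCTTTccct
RPL13A (chr19:49487588-49487617, plus strand): ccctgcgacaaaacctcctcCTTTtccaag
RPS3A (chr4:151099608-151099637, plus strand): tcgcgcgactcccacttccgccCTTTtggc
In RPSA, RPS12, RPL13A and RPS3A the match lies in a run of pyrimidines at the start, and their mean levels were 2126 ± 373 CPM, 941 ± 271 CPM, 1993 ± 656 CPM and 1458 ± 272 CPM.

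Of the 10 long noncoding RNAs with the most counts, 4 were hosts of small nucleolar RNAs. SNHG29 had 533 ± 99.8 CPM, GAS5 303 ± 47.3 CPM, SNHG16 293 ± 32.4 CPM and SNHG1 245 ± 28.1 CPM. The nuclear RNAs NEAT1, the scaffold of paraspeckles, and MALAT1, found in nuclear speckles, had 339 ± 72.4 CPM and 195 ± 35.7 CPM, and NORAD, which binds Pumilio proteins, had 231 ± 36.6 CPM. Scaled to length, SNHG29 had 2482 ± 272 ppm and NEAT1 31.2 ± 8.27 ppm. The NEAT1 level was divided by a canonical transcript of 22743 bases, so the gap depends on that length. Which NEAT1 isoforms these poly(A) libraries captured was not examined. LINC03061 had 392 ± 120.3 CPM. Among the 10 were also ENSG00000283907, at 117, 623 and 462 CPM, and ESRG, at 275, 67.8 and 372 CPM. ESRG is known as a transcript of pluripotent stem cells that starts in an endogenous retrovirus, and lies at chr3:54632124-54639857 (GRCh38.p14). It and ENSG00000283907 were the least even of the 10, ESRG low in replicate 2 and ENSG00000283907 low in replicate 1.

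The cells carried the gene programme of a simple epithelium. Of 29 matched genes for epithelial adhesion, junctions and simple keratins, 28 were expressed and none was silent, with a median of 59.1 ppm. KRT8 and KRT18, which pair into the keratin filaments of simple epithelia, had 905, 1616 and 1287 CPM and 413, 637 and 476 CPM. KRT19, a keratin of the same tissues, had 572, 1104 and 816 CPM. In all 3 keratin genes replicate 2 was highest and replicate 1 lowest, and no library was near the floor. EPCAM, the epithelial adhesion molecule of the intestine, had 199, 237 and 179 CPM, and the desmosomal genes JUP, DSP and DSG2 had 286 ± 61.3 CPM, 286 ± 81.6 CPM and 296 ± 82.99 CPM. The tight junction claudins CLDN4, CLDN7 and CLDN3 had 116 ± 24.04 CPM, 103 ± 29.03 CPM and 17.3 ± 6.84 CPM. E-cadherin (CDH1), the adherens junction receptor, had 29.7, 32.6 and 47.01 CPM. The splicing factors of epithelial isoforms, ESRP1 and ESRP2, had 155 ± 15.8 CPM and 48.9 ± 10.03 CPM. CD24 was not matched to an identifier and was not used here.

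Further keratins were mostly low or silent. Of 26 genes, mainly keratins of stratified epithelia and hair but with KRT7 and KRT20 included, 4 were expressed (15.4%) and 14 silent. The expressed ones were KRT10 at 23.2 ± 7.602 CPM, KRT15 at 13.8 ± 4.19 CPM, KRT23 at 4.93 ± 1.17 CPM and KRT80 at 1.25 ± 0.255 CPM. KRT1, KRT5 and KRT4, keratins of the epidermis and the oesophagus, had 0 counts in every library. KRT7, a keratin of ducts, had 16, 27 and 25 counts. Of 24 claudins, 7 were expressed (29.2%, against 63.7% of all protein-coding genes).

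**Figure D3:**
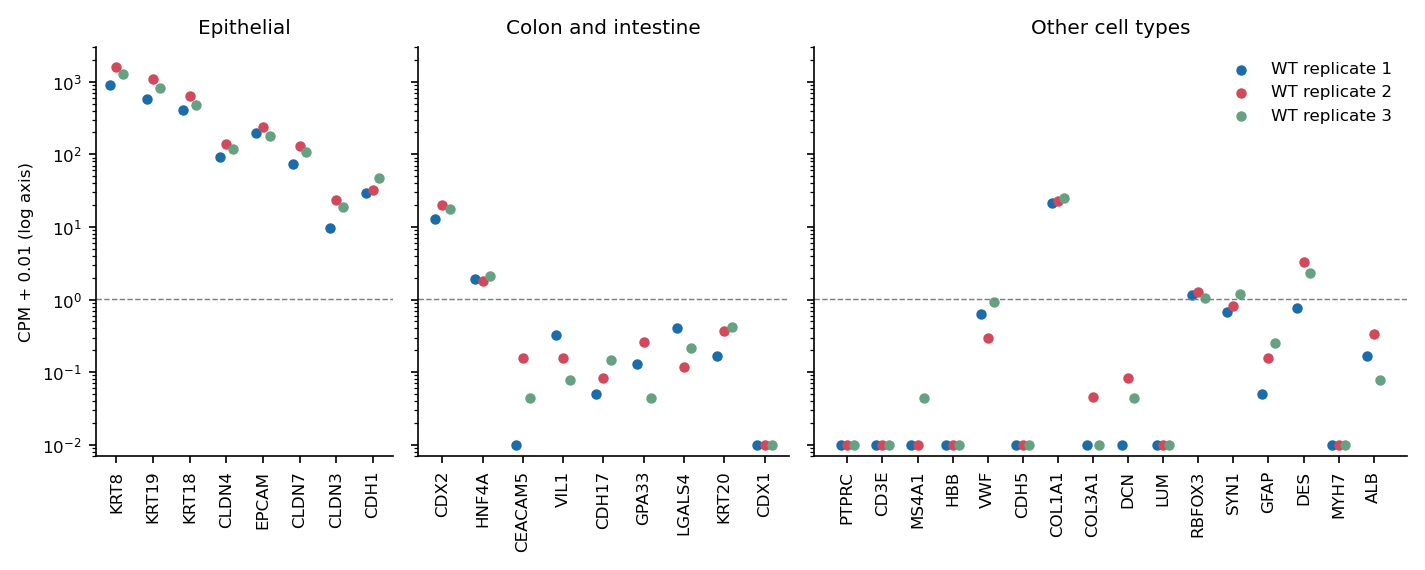
CPM + 0.01 on a log axis for markers of epithelium, of colon and intestine, and of other cell types in the 3 WT libraries, with a dashed line at 1 CPM. Every epithelial marker lies above the line in every library. Of the 9 colon and intestine markers, 7 have means below it, VIL1, CDH17 and KRT20 among them. So do 13 of the 16 markers of other cell types, while COL1A1 and DES are among those with means above it.

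Of 34 intestinal transcription factors, 22 were expressed (64.7%) and 7 silent (20.6%), close to the shares over all protein-coding genes (63.7% and 22.6%), with a median of 1.72 ppm. SOX9, active in crypt progenitors, was highest at 185, 211 and 265 CPM, and TCF7L2, the nuclear partner of beta-catenin in the gut, had 200.5, 185 and 219 CPM. The homeobox factor CDX2, which defines the intestine, had 12.7, 20.03 and 17.6 CPM, well above the floor in each library. Its paralog CDX1 had 0 counts in all 3. HNF4A, the nuclear receptor of enterocyte differentiation, had only 1.93, 1.77 and 2.12 CPM. GATA6 was expressed at 20.1 ± 3.61 CPM while GATA4, of the proximal intestine, had 0 counts. PITX1, a factor of the hindgut and hindlimb, had 49.3 ± 13.2 CPM. Factors of the secretory lineages were mixed, with 4, 17 and 20 counts for ATOH1, 4, 7 and 6 counts for SPDEF and 0 for NEUROG3, while GFI1 had 8.905, 10.5 and 11.99 CPM, FOXA3 7.53 ± 0.779 CPM and FOXA1 2.42 ± 0.8599 CPM. KLF5 and KLF4, which act in crypt and villus, had 47.9 ± 9.25 CPM and 44.4 ± 16.8 CPM.

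HOX genes, which record position along the body axis, were expressed from 26 of 39 members (66.7%, against 63.7% of all protein-coding genes), and 3 were silent. HOXA9 was highest at 76.2, 96.3 and 82.7 CPM, followed by HOXB8 at 35.3 ± 2.92 CPM and HOXB7 at 28.6 ± 6.01 CPM. HOXA10 had 24.2 ± 5.62 CPM and HOXA13, of the hindgut, 10.9 ± 2.76 CPM. The clusters differed. HOXB3 to HOXB9 each had between 15.7 and 35.3 CPM, HOXB1 had 0 counts, and of the HOXD genes only HOXD8, at 7.14 ± 3.54 CPM, reached 1 CPM. Of the other families, 7 of 19 SOX genes were expressed, led by SOX9 and by SOX4 at 127 ± 13.97 CPM, and 23 of 46 FOX genes, led by FOXK1 at 169 ± 39.3 CPM. Of 9 PAX genes, 4 were expressed (44.4%). They were PAX2 at 12.5 ± 0.649 CPM, PAX9 at 8.05 ± 1.57 CPM, PAX8 at 6.66 ± 0.473 CPM and PAX6 at 4.47 ± 0.296 CPM. The other 5, PAX5 and PAX7 among them, were silent.

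Genes of differentiated colonocytes and enterocytes were largely missing. Of 39 genes, 5 were expressed (12.8%, against 63.7% of all protein-coding genes), 17 low and 17 silent, 14 of them with 0 counts in every library. The median length-scaled level of the 39 was 0.0570 ppm. Carbonic anhydrase CA2 was the highest at 40.3, 56.97 and 45.02 CPM. USH1C, a scaffold of the microvillus tip, had 15.2 ± 5.100 CPM, the peptidase DPP4 6.87 ± 1.29 CPM, the peptide transporter SLC15A1 6.45 ± 0.826 CPM and the adhesion molecule CEACAM1 1.68 ± 0.553 CPM. Villin (VIL1), the bundler of microvillus actin, had 8, 4 and 2 counts. The intestinal cadherin CDH17 had 1, 2 and 4 counts, galectin LGALS4 10, 3 and 6 counts, the A33 antigen GPA33 3, 7 and 1 counts and KRT20, the keratin of mature surface cells, 4, 10 and 12 counts. CEACAM5, the carcinoembryonic antigen, had 0, 4 and 1 counts. FABP1, SI, CA4, GUCY2C, GUCA2A, CEACAM6, CEACAM7 and PHGR1 had 0 counts in every library. The labelled colonic origin was matched by CDX2 and by the epithelial genes, and most markers of mature colonic cells were at or near the floor.

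Genes of the secretory lineages were also mostly low or silent. Of 20 goblet cell genes, 4 were expressed and 12 silent. The mucin MUC2 had 0, 0 and 3 counts, the trefoil factor TFF3 0, 0 and 2 counts and the disulfide isomerase AGR2 0, 1 and 0 counts, while GALNT12, a transferase that starts mucin glycans, had 37.8 ± 5.54 CPM and FCGBP, a mucus protein, 11.1 ± 3.59 CPM. Of 28 enteroendocrine genes, 7 were expressed and 18 silent. The secretogranin SCG2 was the highest of them at 5.24, 5.53 and 5.07 CPM, followed by PAX6 at 4.47 ± 0.296 CPM and SYP at 3.200 ± 0.659 CPM. Chromogranin A (CHGA) had 1, 2 and 8 counts, and glucagon (GCG) and INSL5 had 0 in all 3. Of 15 tuft cell genes, 4 were expressed (26.7%), led by DCLK1 at 6.15, 9.76 and 13.1 CPM and PTGS1 at 6.71 ± 3.07 CPM. The defining tuft cell factor POU2F3 had 6, 2 and 4 counts and the channel TRPM5 1, 2 and 0 counts. Of 11 matched Paneth cell genes, NOD2 (7.56 ± 0.608 CPM) and DLL4 (3.01 ± 1.12 CPM) were expressed (18.2%). The Paneth cell defensins DEFA5 and DEFA6 had 0 counts.

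Stem cell genes and targets of Wnt signalling were mostly expressed, with some crypt markers at or near 0. Of 32 genes, 24 were expressed, 4 low and 4 silent, with a median of 8.20 ppm. Of all protein-coding genes, 63.7% were expressed and 22.6% silent, with a median of 6.13 ppm. The list as a whole was thus only somewhat above that reference. Cyclin D1 (CCND1) had 725, 646 and 767 CPM, the adhesion receptor CD44 412, 482 and 589 CPM, the secreted Wnt inhibitor DKK1 206, 423 and 356 CPM and MYC 225, 366 and 372 CPM. In DKK1 and MYC replicate 1 was the lowest library. The feedback inhibitors AXIN2, ZNRF3, RNF43, NKD1 and NOTUM, which beta-catenin is known to induce, had 26.9 ± 2.82 CPM, 25.4 ± 2.03 CPM, 46.7 ± 10.5 CPM, 21.8 ± 7.29 CPM and 22.9 ± 9.65 CPM. LGR5, the receptor that marks crypt base stem cells, had 0, 0 and 5 counts. OLFM4, SMOC2 and ASCL2, further markers of those cells, and the beta-catenin partner LEF1 had 0 counts in every library, whereas its relative TCF7 had 31.1 ± 6.505 CPM. PROM1, also a stem cell marker, had 33.3, 23.2 and 27.5 CPM, and the telomerase gene TERT 14.2, 10.7 and 15.4 CPM. The Wnt antagonists SFRP1, SFRP2, SFRP4, SFRP5, WIF1 and DKK2 were all silent, with no more than 2 counts in any library.

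Markers of other cell types were low, with exceptions. Of 24 blood and immune genes, 4 were expressed (16.7%, against 63.7% of all protein-coding genes). The defining markers PTPRC, CD3E, CD3D and TYROBP had 0 counts. The expressed ones were CD68 at 17.97 ± 1.07 CPM, which lysosomes of many cells carry, KLRD1 at 1.81 ± 0.536 CPM and the alpha globin genes HBA2 and HBA1 at 0.906, 10.7 and 6.06 CPM and 1.497, 1.37 and 3.12 CPM, 2 near-identical copies between which reads cannot be placed with certainty. Of 11 matched endothelial genes, EGFL7 (50.1, 121 and 75.6 CPM) and ESAM (9.51 ± 1.55 CPM) were expressed (18.2%), and CDH5 had 0 counts. PECAM1 was not matched. Of 18 hepatocyte genes, 3 were expressed (16.7%), TF at 6.77 ± 1.81 CPM and, at lower means, SERPINA1 and ASGR1. ALB had 4, 9 and 2 counts. Of 16 muscle genes, 4 were expressed, led by TNNI3 at 12.95 ± 5.197 CPM. MYOD1 and MYH7 had 0 counts. Of 20 neural genes, 7 were expressed (35.0%), led by TUBB3, MBP, MAP2 and GAD1. TUBB3, a beta-tubulin of neurons that many carcinomas express, stood out at 191, 251 and 215 CPM, and NEFL, DCX and OLIG2 had 0.

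Mesenchymal genes were mixed, and a smaller share was expressed than of all protein-coding genes. Of 30, 10 were expressed and 12 silent. S100A4 had 55.1, 75.9 and 44.6 CPM, fibronectin (FN1) 30.5, 20.03 and 41.97 CPM, vimentin (VIM) 35.7, 28.99 and 27.2 CPM and the collagen gene COL1A1 21.3, 22.7 and 24.7 CPM, although its partner chain COL1A2 had 0, 0 and 1 counts. Among the repressors of E-cadherin, SNAI1 had 13.1 ± 1.51 CPM, ZEB1 9.77 ± 1.69 CPM and TWIST1 1.87 ± 0.6302 CPM, while ZEB2 had 3, 0 and 2 counts and TWIST2 0, 0 and 3 counts. N-cadherin (CDH2) had 0, 1 and 6 counts. The fibroblast markers DCN, LUM, COL3A1 and POSTN were silent.

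**Figure D4:**
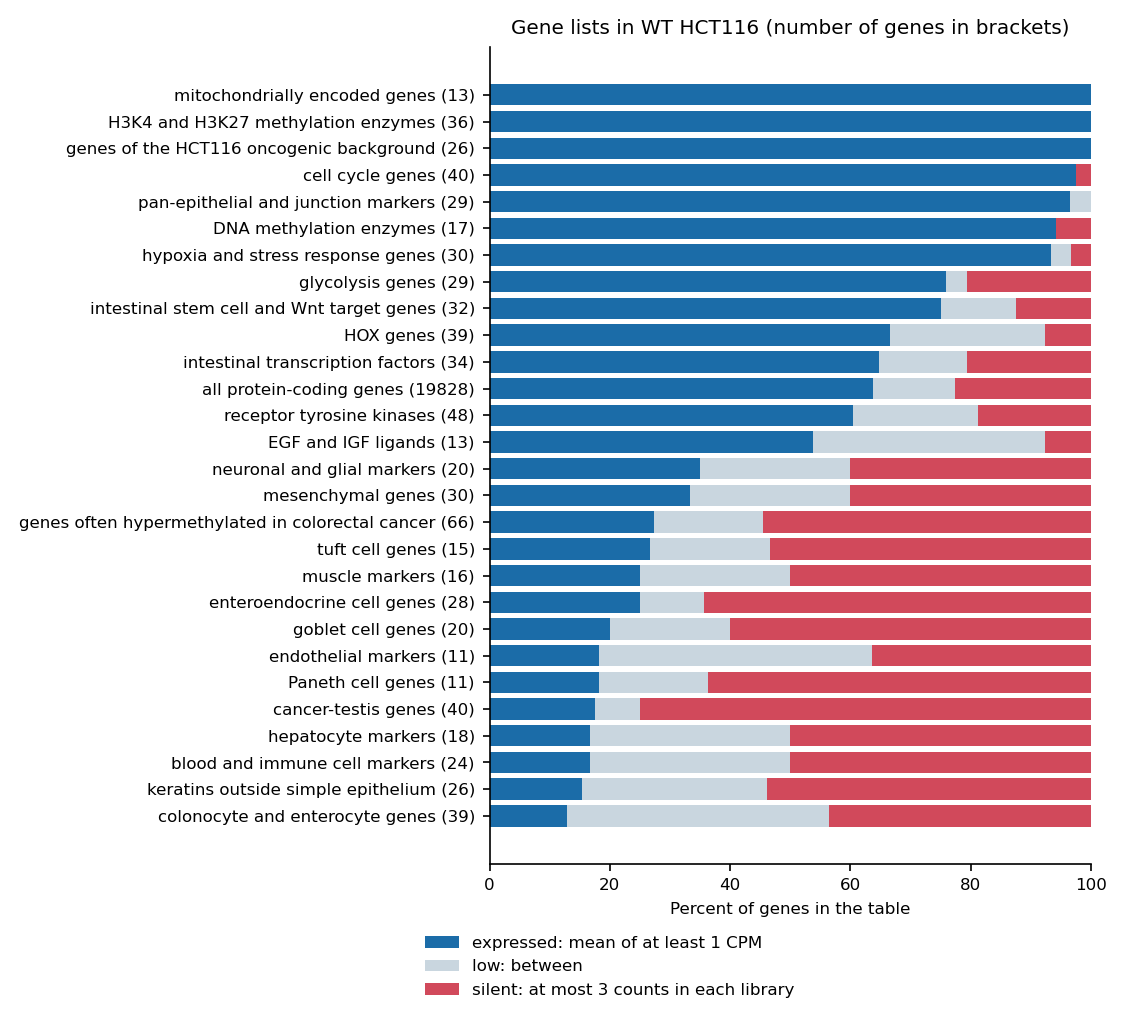
Share of each fixed gene list (y axis, number of genes in the table in brackets) that was expressed, low or silent in WT HCT116 cells, as percent of genes (x axis), with all protein-coding genes for reference at 63.7% expressed. Lists of proliferation, chromatin and epithelial genes lie at the top, and those of differentiated intestinal, blood and liver cells and of cancer-testis genes at the bottom.

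All 26 genes of the oncogenic background of the line were expressed. CTNNB1, which encodes beta-catenin, had 433, 354 and 339.7 CPM, NRAS 173, 114 and 128 CPM and PIK3CA 41.96, 28.5 and 35.6 CPM. The levels of mRNA say nothing of the alleles, which were not read here. Among the DNA mismatch repair genes, MSH6 had 103, 88.5 and 87.4 CPM, PMS2 59.9, 48.7 and 53.04 CPM and MSH3 5.63, 3.15 and 3.77 CPM. On the length-scaled level MSH6 was at 45.4 ± 6.603 ppm, PMS2 at 22.1 ± 3.72 ppm and MSH3 at 1.98 ± 0.721 ppm, and MSH3 was the gene with the lowest mean of the 26. The cell cycle inhibitor CDKN2A had 56.6, 80.6 and 45.7 CPM.

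Receptor tyrosine kinases pass growth signals into the cell. Of 48, 29 were expressed (60.4%, against 63.7% of all protein-coding genes), 10 low and 9 silent. The hepatocyte growth factor receptor MET was highest at 516, 334 and 488 CPM, followed by the ephrin receptor EPHA2 at 202, 259 and 314 CPM and EGFR at 189, 114 and 227 CPM. Replicate 2 was the lowest for MET and EGFR, whose transcripts are long. ERBB2 and ERBB3 had 77.7 ± 6.64 CPM and 28.9 ± 4.64 CPM, while ERBB4 had 4, 1 and 1 counts. All 4 FGF receptors were expressed, FGFR4 at 112 ± 35.3 CPM, FGFR1 at 108 ± 16.4 CPM, FGFR3 at 48.2 ± 8.81 CPM and FGFR2 at 21.6 ± 1.59 CPM. KIT, PDGFRA and NTRK2 had 0 counts. Of 13 ligands of the EGF and IGF families, 7 were expressed (53.8%). The EGFR ligands epiregulin (EREG) and amphiregulin (AREG) led with 969, 596 and 658 CPM and 170.0, 288 and 243 CPM, and TGFA had 66.9 ± 4.78 CPM. EGF itself had 14, 23 and 19 counts. IGF2 had 29.9 ± 2.66 CPM, and IGF1 4, 0 and 0 counts.

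Proliferation genes were expressed almost without gap. Of 40 cell cycle genes, 39 were expressed, at a median of 119 ppm. After CCND1, the proliferation antigen MKI67 had 782, 304 and 687 CPM and the ribonucleotide reductase subunit RRM2 735, 507 and 479.5 CPM. MKI67 is long and was lowest in replicate 2. The D-type cyclin CCND3 had 44.8 ± 9.53 CPM and CCND2 was silent with 0, 2 and 1 counts. Of 29 glycolysis genes, 22 were expressed (75.9%, against 63.7% of all protein-coding genes), and the family members divided by tissue form. GAPDH, ENO1, PKM, ALDOA and LDHA had 4659 ± 487 CPM, 2464 ± 332 CPM, 1984 ± 75.04 CPM, 1247 ± 317 CPM and 903 ± 78.1 CPM. The liver and germ cell forms PKLR, LDHC, PGK2 and GAPDHS were silent.

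Among 30 genes of hypoxia and stress responses, 28 were expressed. HSP90AA1, the endoplasmic reticulum chaperone HSPA5 at 1409, 1066 and 954 CPM and the early response gene IER3 at 430.2, 702 and 522 CPM led. HSPA1B had 419.5, 431 and 395 CPM and its near-identical copy HSPA1A 0.512, 4.92 and 3.39 CPM, so how the reads of the pair were divided is uncertain. The hypoxia genes VEGFA and NDRG1 had 61.4 ± 5.44 CPM and 178, 329 and 372 CPM, and carbonic anhydrase CA9 had 0, 3 and 4 counts. TXNIP, the glucose-responsive inhibitor of thioredoxin, had 0 counts in every library, on chr1:145992435-145996579 (GRCh38.p14). FOS, an immediate early gene, was uneven at 9.65, 44.6 and 33.2 CPM.

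Enzymes that write, read and remove DNA methylation were expressed, 16 of 17, at a median of 18.04 ppm. The maintenance methyltransferase DNMT1 had 305, 264 and 369 CPM, its partner UHRF1 271, 207 and 227 CPM and the helicase HELLS 182.2, 118 and 133 CPM. The de novo enzymes DNMT3B and DNMT3A had 36.2 ± 7.24 CPM and 25.2 ± 3.86 CPM, and their germ cell cofactor DNMT3L had 0 counts. Of the TET dioxygenases, which oxidise methylcytosine, TET3 had 46.4, 19.6 and 34.9 CPM, TET2 23.2, 7.95 and 14.7 CPM and TET1 7.29, 1.84 and 6.92 CPM, all lowest in replicate 2. All 36 genes of enzymes and complexes for methylation of histone H3 at lysine 4 and lysine 27 were expressed, at a median of 24.1 ppm. The highest by counts were HDAC1 (287 ± 20.4 CPM), RBBP4 (264 ± 18.7 CPM) and KDM1A (225 ± 13.96 CPM). RCOR1, which ties LSD1 to chromatin, had 66.3 ± 9.599 CPM, RCOR3 28.8 ± 3.597 CPM and RCOR2 14.5 ± 2.904 CPM. KDM1B, the paralog of KDM1A, had 51.97 ± 10.2 CPM. On the length-scaled level KDM1A (152 ± 19.00 ppm) lay above KDM1B (24.00 ± 5.95 ppm) in every library. The H3K4 methyltransferases KMT2A, KMT2D, KMT2C and KMT2B had 129 ± 57.9 CPM, 129 ± 62.1 CPM, 52.8 ± 19.8 CPM and 51.9 ± 13.1 CPM. The Polycomb subunits EZH2, SUZ12 and EED had 111 ± 18.6 CPM, 125 ± 30.1 CPM and 35.5 ± 2.63 CPM.

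Genes that are often hypermethylated in colorectal cancer were mostly silent. Of 66, 36 were silent, 12 low and 18 expressed, against 22.6% of protein-coding genes silent in all. No methylation was measured in these libraries. With 0 counts in every library were 19 genes, among them the Wnt antagonists SFRP2, SFRP4 and WIF1, the T cell and myelin protein gene MAL, TAC1, NEUROG1, GATA4, GATA5, SDC2, TMEFF2, CNRIP1 and PENK. BMP3 and SPG20 (now SPART) were at 0 as well. The expressed members were led by SEPTIN9 at 317, 381 and 417 CPM and HLTF at 159, 162 and 187 CPM, a helicase of DNA damage tolerance, followed by CDKN2A. MGMT, which repairs alkylated guanine, had 13.5, 16.8 and 12.3 CPM, and RUNX3 and RASSF1 had 40.6 ± 6.22 CPM and 35.02 ± 3.703 CPM. OVOL2, a zinc finger repressor of mesenchymal genes, had 0.709, 1.95 and 0.959 CPM, at the line between expressed and low, and fell below 1 CPM without replicate 2.

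CG content of promoters went with expression. RefSeq windows of 300 bases, from 250 before to 50 after the outermost annotated start, could be used for 13360 of 19828 protein-coding genes (67.4%), so the comparison is void as a statement on all protein-coding genes and describes those 13360. Of them, 66.8% were expressed. With fewer than 5 CG dinucleotides in the window, 376 of 2132 genes (17.6%) were expressed and 61.0% silent. For genes with 1 listed start the expressed share in this class was 11.2%, a choice made after seeing the data. The expressed share was 34.6% with 5 to 9 CG, 56.9% with 10 to 14, 74.9% with 15 to 19, 83.3% with 20 to 24 and 87.0% with 30 and over. The median number of CG was 5 in silent genes, 10 in low genes, 21 in genes from 1 to 10 CPM and 27 to 29 in those above. CG-rich promoters were still found in 581 silent genes with 20 CG or more. Of the 20 silent genes of the often hypermethylated list with a window, the median was 24.5 CG, and it was 32 in the 10 expressed genes of that list. The list holds genes known for CG-rich promoters, so its CG content was fixed by its choice.

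Short motifs in the windows differed as well. The letters TATAAA between 45 and 16 bases before the start, on the gene's strand, were found in 3.97% of all 13360 windows, in 9.80% of silent genes, in 0.935% of genes from 10 to 100 CPM and in 6 of 45 genes at 1000 CPM and over (13.3%). GGGCGG, on either strand, was found in 59.3% of windows, 29.3% of those of silent genes and 84.4% of those at 1000 CPM and over. CCAAT, on either strand, changed little with level, from 37.2% of silent genes to 46.7% of the 45 highest. GGGCGG holds a CG and so is not independent of the CG count. Matches describe letters and are not binding sites.

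**Figure D5:**
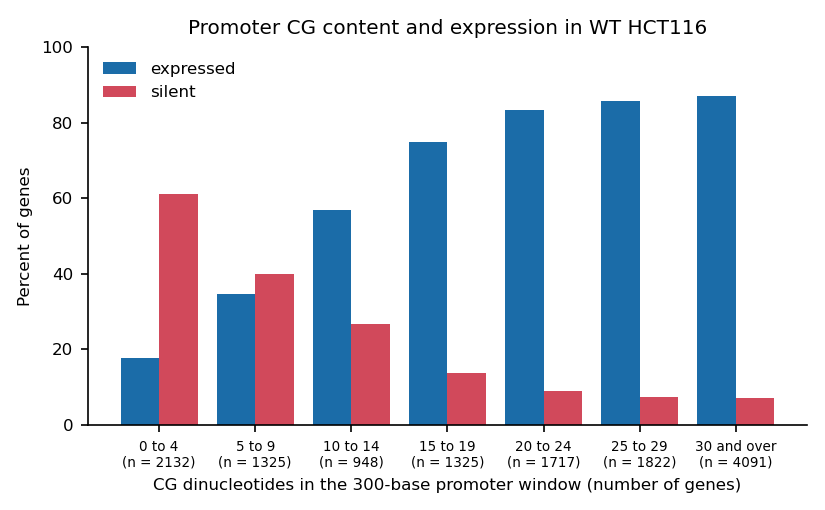
Percent of protein-coding genes that were expressed or silent in WT HCT116 cells (y axis) by the number of CG dinucleotides in the 300-base promoter window (x axis, with the number of genes). The expressed share climbs from 17.6% to 87.0%, while the silent share falls from 61.0% to 7.16%.

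The 200 bases before the start are shown for 5 genes that span the combinations of CG content and level, from RefSeq on GRCh38.p14, written 5′ to 3′ on the gene's strand with each CG in capitals. EEF1A1 is CG-rich and very abundant, ANXA1 has no CG and is abundant, MAL and WIF1 are CG-rich and silent, and FABP1 is CG-poor and silent.
EEF1A1 (chr6:73521033-73521232, minus strand): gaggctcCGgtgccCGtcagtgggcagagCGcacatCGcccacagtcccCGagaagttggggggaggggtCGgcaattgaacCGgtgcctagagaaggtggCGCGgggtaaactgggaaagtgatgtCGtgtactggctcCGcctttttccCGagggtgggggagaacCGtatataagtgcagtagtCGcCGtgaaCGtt
ANXA1 (chr9:73151665-73151864, plus strand): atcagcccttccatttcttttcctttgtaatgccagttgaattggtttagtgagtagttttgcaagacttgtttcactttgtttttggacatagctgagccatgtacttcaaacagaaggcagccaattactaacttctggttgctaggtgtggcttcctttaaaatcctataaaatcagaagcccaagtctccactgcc
MAL (chr2:95025508-95025707, plus strand): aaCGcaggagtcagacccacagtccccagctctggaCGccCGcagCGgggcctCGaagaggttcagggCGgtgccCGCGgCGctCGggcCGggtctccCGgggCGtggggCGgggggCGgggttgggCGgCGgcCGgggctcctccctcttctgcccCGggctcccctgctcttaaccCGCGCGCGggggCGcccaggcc
WIF1 (chr12:65121306-65121505, minus strand): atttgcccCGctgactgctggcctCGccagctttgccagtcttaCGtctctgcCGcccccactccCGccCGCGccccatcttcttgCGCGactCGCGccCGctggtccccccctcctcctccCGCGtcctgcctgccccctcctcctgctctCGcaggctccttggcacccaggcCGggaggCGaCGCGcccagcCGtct
FABP1 (chr2:88128063-88128262, minus strand): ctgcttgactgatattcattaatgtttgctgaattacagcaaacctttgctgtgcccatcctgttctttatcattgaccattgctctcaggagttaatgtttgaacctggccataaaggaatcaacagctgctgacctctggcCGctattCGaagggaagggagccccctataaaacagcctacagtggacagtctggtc
EEF1A1 holds 16 CG in the stretch shown, and had 10189.7, 15602 and 12401 CPM. ANXA1, which encodes the phospholipid-binding annexin A1, holds 0 and had 561, 637 and 558 CPM. MAL and WIF1 hold 24 and 20, more than EEF1A1, and had 0 counts in all 3 libraries. FABP1, the fatty acid binding protein of enterocytes, holds 2 and also had 0.

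Germline and sensory gene families were mostly silent. Of 40 cancer-testis genes, 7 were expressed (17.5%, against 63.7% of all protein-coding genes) and 30 silent, 21 of them with 0 counts. MAGEB2 was the highest at 136, 168 and 139 CPM, on chrX:30215563-30220089 (GRCh38.p14), then MAGEA3 at 106, 99.3 and 80.1 CPM, PRAME at 55.6, 63.7 and 65.3 CPM and MAGEA2 at 37.2, 47.3 and 45.1 CPM. MAGEA6, a close copy of MAGEA3, had 1.18, 2.35 and 2.296 CPM, so the division of reads in the pair is uncertain. MAGEA4, MAGEC1, MAGEC2 and CTAG2 had 0. All 39 beta-defensin genes were silent, as were 85 of 94 keratin-associated protein genes, of which KRTAP2-3 alone was expressed at 5.48, 11.6 and 8.74 CPM. Of 53 clustered protocadherins, 5 were expressed (9.43%), led by PCDHAC2 at 11.9 ± 2.57 CPM, and of 42 chemokines 5 (11.9%), led by CXCL16 at 42.6 ± 1.24 CPM. Of 62 replication-dependent histone genes 11 were expressed, although the cells cycle, and since these mRNAs lack a poly(A) tail their levels in poly(A) libraries are no measure of the histone mRNA in the cell. Of 24 bitter taste receptors 2 were expressed (8.33%), and of 49 interleukins 10 (20.4%), led by IL18 at 45.2 ± 7.19 CPM. Of 56 cytochrome P450 genes 20 were expressed (35.7%), led by CYP51A1 at 109 ± 6.41 CPM. Of 368 SLC transporters 226 were expressed (61.4%, close to the 63.7% of all protein-coding genes), led by SLC38A2 at 763 ± 144 CPM. Among zinc finger genes named ZNF, 384 of 508 were expressed (75.6%), at a median of 3.91 ppm.

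Olfactory receptor genes were an exception at a stretch of chromosome 11, picked out after its values were seen. Of 396 olfactory receptor genes, 332 were silent and 19 expressed. Of the 19, 7 lay between HBE1 and the far end of OR51B5, chr11:5268345-5505652 (GRCh38.p14), where 9 of the 396 lie. OR51B5 was the highest olfactory receptor at 125, 82.5 and 81.9 CPM. OR51B4 had 11.2, 3.15 and 7.43 CPM and OR51B2 7.29, 2.603 and 5.55 CPM, and the other 4 (OR51I1, OR51I2, OR51M1 and OR52D1) had means between 1.87 and 3.02 CPM. Outside the stretch, the highest was OR2A7 at 7.29, 2.96 and 6.92 CPM. OR51B5 spans 5340318 to 5505652 in RefSeq and overlaps several of the others, so their counts cannot be told apart with certainty. The embryonic beta-like globin gene HBE1, at chr11:5268345-5269945, had 39.3, 87.01 and 61.9 CPM, the fetal gene HBG2 5.398, 7.95 and 4.69 CPM and its near copy HBG1 4, 3 and 7 counts. The adult genes HBB and HBD had 0, 0 and 0 and 0, 0 and 1 counts.

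The protein-coding genes that were least even over the 3 libraries, among those with a mean of at least 10 CPM, were mostly low in replicate 2. ENSG00000267303 had 0, 1054 and 0 counts, the 1 gene of the 10 seen in a single library. ENSG00000288534 had 81.2, 5.42 and 13.6 CPM. The transcription factor genes ZBTB20 and REL had 59.2, 5.57 and 34.2 CPM and 28.8, 3.25 and 21.4 CPM, the chromatin remodeller SRCAP 119, 14.9 and 117 CPM, the mitochondrial membrane gene MPV17L 45.7, 5.35 and 23.6 CPM and RGPD5, one of a family of near copies, 69.3, 10.95 and 38.1 CPM. These genes, other than ENSG00000267303, were lowest in replicate 2. ZBTB20, REL and SRCAP have canonical transcripts of 27503, 11108 and 11724 bases. Those of RGPD5, MPV17L and ENSG00000288534 have 7268, 5894 and 5333 bases. SCGB3A2, a secretoglobin of the airway, was also lowest in replicate 2 at 29.99, 9.07 and 48.7 CPM, with a short canonical transcript of 516 bases. The opposite was seen in TNFRSF6B, a decoy receptor for death ligands, at 40.4, 286 and 218 CPM, and TMEM158 at 24.1, 131 and 106 CPM, both lowest in replicate 1. The levels of these 10 genes cannot be given more closely than a range.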

How the data were processed

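Polyadenylated RNA from WT HCT116 cells was sequenced in 3 libraries. The authors trimmed the reads with Trimmomatic 0.39, checked them with FastQC, quantified them with Salmon 1.4.0 on GENCODE transcripts of GRCh38 (tools per the submitters' processing notes) and deposited estimated counts per gene, in whole numbers and unscaled. The step from transcripts to genes is not given in the sources used here. Counts split between near-identical or overlapping genes are estimates.

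Identifiers were matched to symbols for 58395 of 60240 genes. Lengths came from GENCODE v44lift37, from the canonical transcript or else the first listed. CPM used total counts. Promoter windows came from RefSeq on GRCh38.p14. Genes were named by rule: KDM1A, the 15 highest protein-coding genes per length and 10 by CPM, the 3 highest and the silent members of each list, the members that tell expressed from silent relatives, the 10 highest long noncoding RNAs, and the 10 least even protein-coding genes of at least 10 CPM. The globin and olfactory stretch was added after its values were seen. Members and lists were chosen with earlier results of these data known. No test was run. Alternatives used TMM (edgeR 4.0.16) and median-of-ratios (DESeq2 1.42.0) scaling, other thresholds, other lengths and each library left out. Some genes are not reported here. The class rules were run on simulated data without a length effect, in which genes near the line of 1 CPM were not assessed. Python 3.11.15, numpy 2.4.6 and matplotlib 3.10.9 were used.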

Additional observations from a re-analysis of the deposited data

How the results depend on the processing

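The numbers of expressed and silent genes, of expressed protein-coding genes and of expressed list members stayed within 1.5 times under every scaling, threshold and filter tried and with each library left out. For single lists, single replicates and CG-poor promoters, 157 alternative values stayed close to the reported one and 21 moved, mostly counts of expressed members of the small lists at a line of 5 CPM. The share of the 100 most abundant genes was 17.6% without mitochondrially encoded genes and 36.9% on the length-scaled level, and ranged from 21.2% to 22.6% with each library left out. The median level of the 15 genes with the highest length-scaled level was 7508 ppm, 7871 ppm with the longest annotated transcript, under which 12 of the 15 remained, and 7405 to 7671 ppm with each library left out. Among genes of at least 10 CPM, 233, 352 and 23 genes differed over 2-fold in replicates 1, 2 and 3. Among genes of at least 1 CPM, these numbers were 895, 1176 and 242, and with TMM library sizes 991, 1121 and 240. Of genes with 20 or more CG in the promoter window, 85.9% were expressed, 87.9% at a line of 0.5 CPM, 79.4% at 5 CPM, 85.7% to 85.9% with each library left out, and 85.6% for genes with 1 listed start, a choice made after seeing the data. With fewer than 5 CG, the share was 21.8% at 0.5 CPM, 10.4% at 5 CPM and 11.2% for genes with 1 listed start. No paired analysis was possible because the result comes from no test. Depth limits the silent class: a gene with 0 counts in a single library may lie up to 0.118 CPM. For 0 counts in every WT library the limit is lower and was not computed.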
